A study of Mus musculus with 2 samples.

Results

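The subject here is a set of 8 chemokine receptor genes, Cxcr2, Cxcr4, Ccr1, Ccr2, Cx3cr1, Cxcr3, Cxcr6 and Ccr7, measured across the leukocytes of mouse blood. They were chosen by gene symbol, as receptors that guide the main blood cell types other than the atypical receptor Ccrl2, and are 8 of the 32285 genes in the count tables and of the 20099 genes with at least 1 count in a cell that was kept. The data are 2 single-cell RNA sequencing libraries of blood cells enriched for neutrophils, 1 from WT mice and 1 from APP/PS1 mice, each pooled from 3 mice aged 7 months. APP/PS1 mice are transgenic animals used as a model of Alzheimer's disease, and they carry mutant human amyloid precursor protein and presenilin 1. Both groups were female according to the study's methods, no group received a treatment, and red cells were lysed and neutrophils enriched by negative selection in both. The mice of a pool cannot be told apart in the counts, so each genotype is 1 sample: no difference between genotypes below has a replicate check, no test was possible, and all intervals are 95% intervals that cover counting error only.

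Chemokine receptors are membrane proteins coupled to G proteins that steer leukocytes along gradients of small secreted proteins, the chemokines. In blood, Cxcr2 draws neutrophils into inflamed tissue, Cxcr4 holds cells in bone marrow, Ccr2 lets monocytes leave the marrow, and Cx3cr1 marks monocytes that patrol vessel walls. Ccr7 leads naive lymphocytes to lymph nodes, while Cxcr3 and Cxcr6 are carried by T cells that have met antigen or settle in tissue.

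After filtering, 14564 WT and 15208 APP/PS1 cells were kept, of which 26820 (90.1%) fell into 13 cell types named from fixed marker genes, without using any chemokine receptor or ligand to form the clusters. Each name stands for cells that resemble the type by those markers (neutrophil-like, and so on). Neutrophils made up 57.7% of kept cells, and their defining genes Hdc, S100a8, S100a9, Retnlg, Csf3r, Mmp9, G0s2 and Il1r2 were at 579 (Il1r2) to 87404 (S100a9) CPM (UMIs on a per-million scale) there over both libraries. All 8 were higher in neutrophils than in any other named type except Hdc, which basophils held at 3035. The labels call both samples neutrophils, so the other cells are what the enrichment left. In neutrophils the 8 markers summed to 182827 CPM in WT and 154123 in APP/PS1 (7 of 8 lower), and 7 platelet markers to 299.8 and 419.6 (7 of 7 higher). The libraries had 92458623 (WT) and 84870864 (APP/PS1) UMIs (unique molecular identifiers, which count captured transcripts), with medians of 3345 and 3115 per cell before filtering. They shared 83 cell barcodes, 63 of them among kept cells. Another 2952 kept cells were not named, 1842 of them in clusters of another lineage that also carried neutrophil genes.

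A level below is given in CPM, the receptor's UMIs summed over all cells of a type on a per-million scale of all UMIs of that type, with an exact Poisson interval, and a share is the percentage of cells with at least 1 UMI, with a Clopper-Pearson interval. Levels were compared within a gene only. The kept cells held 84426 UMIs of Cxcr2, 75599 of Ccr1, 58493 of Cxcr4, 42987 of Ccr2, 23483 of Cx3cr1, 1024 of Ccr7, 464 of Cxcr6 and 312 of Cxcr3. With 312 UMIs in 29772 cells, Cxcr3 was seen in few cells of any type.

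Each receptor had its own map over the blood cell types. Neutrophils held the highest levels of Cxcr2, Ccr1 and Cxcr4, classical monocytes that of Ccr2, nonclassical monocytes that of Cx3cr1, memory CD8 T cells that of Cxcr3, gamma-delta T cells that of Cxcr6, and naive CD8 T cells that of Ccr7. Among the named types, the same one was highest in both libraries for each of the 8 receptors.

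**Figure D1:**
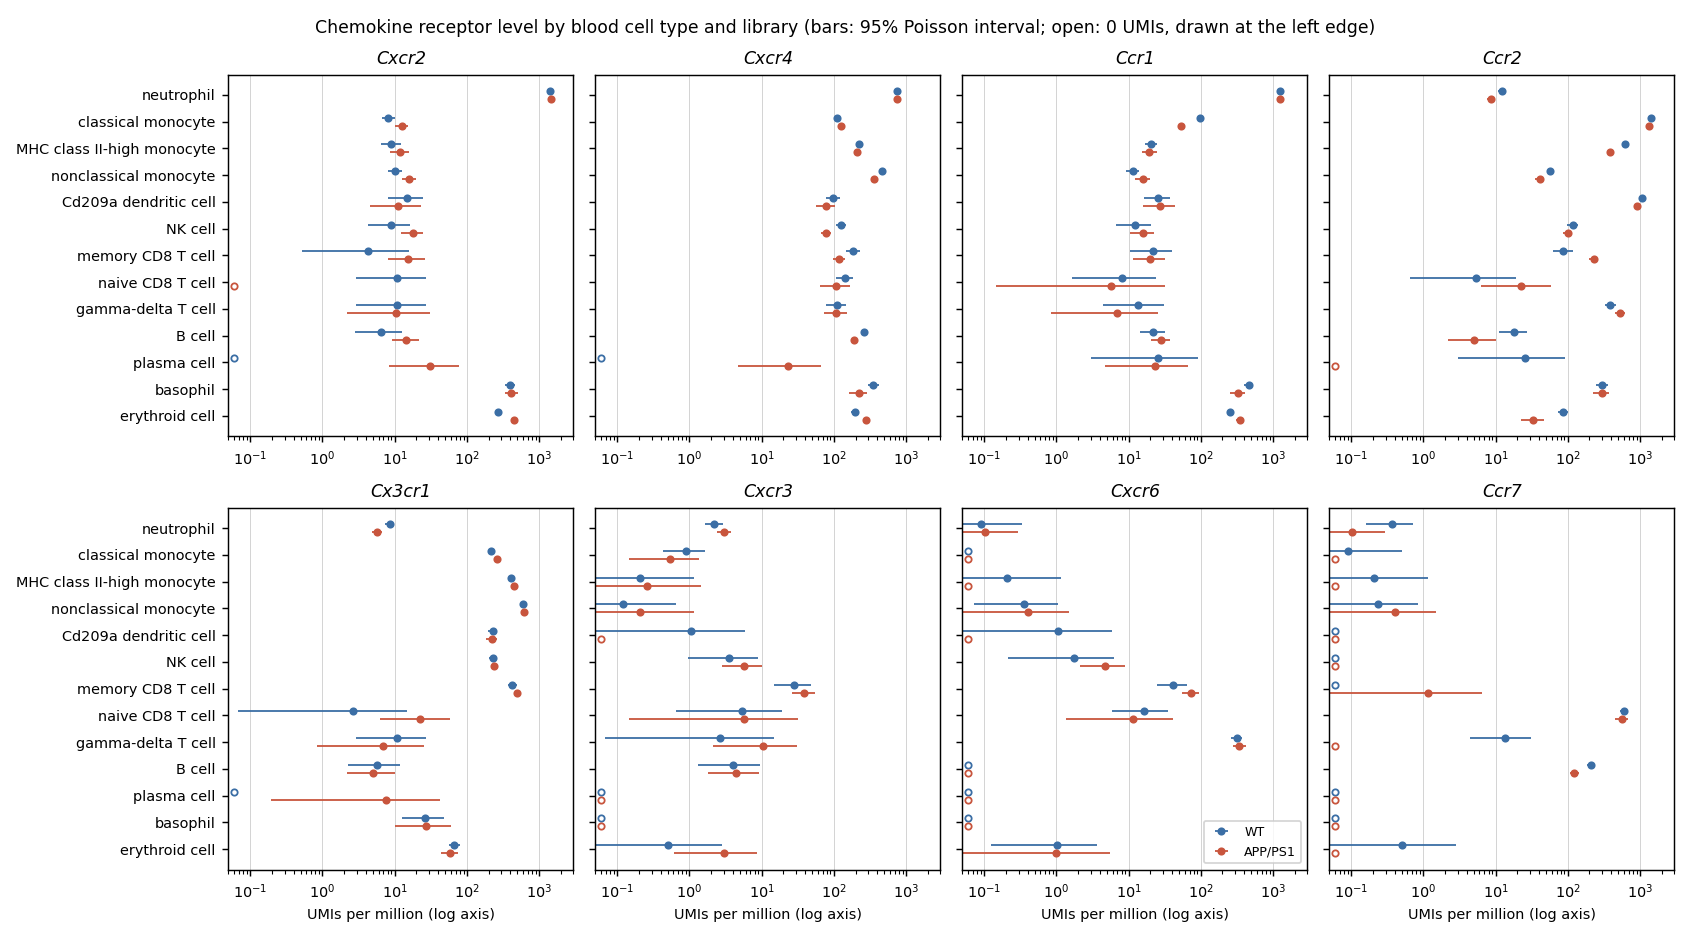
Level of each receptor (CPM, UMIs on a per-million scale, log axis) in the 13 named cell types, with WT in blue and APP/PS1 in red; bars are 95% Poisson intervals that may run off the left edge, and open circles at that edge mark 0 UMIs. The 2 libraries lie close together for most points, Cxcr2 and Ccr1 stand apart in neutrophils, and Cxcr6 and Ccr7 are each confined to a few lymphocyte types apart from stray UMIs.

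Cxcr2, the receptor for the neutrophil-attracting ligands Cxcl1 and Cxcl2, was at 1411 CPM (1395 to 1427) in WT neutrophils and 1453 (1439.5 to 1467) in APP/PS1 neutrophils. A Cxcr2 UMI was found in 94.8% of WT and 95.5% of APP/PS1 neutrophils, at median depths of 2553 and 2703 UMIs per cell. When every cell was thinned to 1000 UMIs, the shares were 73.8% and 73.5%. Of all Cxcr2 UMIs, 87.1% lay in neutrophils and 8.29% in an unnamed monocyte cluster with neutrophil genes.

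Ccr1, a receptor for inflammatory ligands such as Ccl3 and Ccl5, followed the same map. Its level was 1269.5 CPM (1255 to 1285) in WT and 1253 (1240 to 1265) in APP/PS1 neutrophils, with a UMI in 92.8% of cells in either library. Cxcr4, the receptor of Cxcl12, stood at 760.1 (748.5 to 771.8) and 755.1 (745.2 to 765.1) CPM in neutrophils, in 80.3% and 80.6% of cells. The APP/PS1 to WT log2 ratios in neutrophils were 0.04 (0.02 to 0.06) for Cxcr2, -0.02 (-0.04 to 0.00) for Ccr1 and -0.01 (-0.04 to 0.02) for Cxcr4. All 3 were smaller in size than the ratio of the median gene in neutrophils, 0.05, and that of Cxcr2 turned to -0.0023 when the most abundant genes were left out of the totals.

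The promoters of the 3 receptors highest in neutrophils are shown because these genes share a cell type in the data. Cxcr2 and Cxcr4 lie on chromosome 1 and Ccr1 on chromosome 9, at chr1:74153989-74161246 (plus strand), chr1:128588199-128592293 (minus strand) and chr9:123962124-123968692 (minus strand) of GRCm38, the assembly also called mm10. The 250 bases before each RefSeq start site (GRCm38.p6) are printed 5′ to 3′ on the gene's strand, at chr1:74153744-74153993, chr1:128592300-128592549 and chr9:123968693-123968942. Capitals mark matches on either strand to GAGGAA, a core of PU.1-type ETS sites, to TTGCNNAA, a core of C/EBP sites, and to TGTGGT, a core of RUNX sites, all factors known from myeloid cells.
Cxcr2: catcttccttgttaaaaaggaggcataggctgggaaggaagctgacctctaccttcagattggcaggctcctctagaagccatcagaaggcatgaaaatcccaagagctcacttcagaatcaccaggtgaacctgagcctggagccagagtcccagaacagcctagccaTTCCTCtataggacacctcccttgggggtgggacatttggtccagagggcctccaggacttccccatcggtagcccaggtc
Cxcr4: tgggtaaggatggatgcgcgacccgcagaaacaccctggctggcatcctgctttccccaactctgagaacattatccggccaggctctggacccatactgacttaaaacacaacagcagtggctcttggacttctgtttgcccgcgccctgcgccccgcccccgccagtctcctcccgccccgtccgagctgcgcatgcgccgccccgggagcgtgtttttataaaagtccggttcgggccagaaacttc
Ccr1: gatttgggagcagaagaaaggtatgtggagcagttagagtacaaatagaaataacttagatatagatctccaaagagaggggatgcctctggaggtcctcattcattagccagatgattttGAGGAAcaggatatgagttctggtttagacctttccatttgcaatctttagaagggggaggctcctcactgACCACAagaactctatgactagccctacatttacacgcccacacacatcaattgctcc
The Cxcr2 window held 1 match to GAGGAA, on the minus strand 81 to 76 bases before the start. In the Ccr1 window, GAGGAA matched on the plus strand 129 to 124 bases and TGTGGT on the minus strand 58 to 53 bases before the start, and the Cxcr4 window held no match to any of the 3. Of 32851 promoter windows of the same length, 23.3% held GAGGAA, 9.56% TTGCNNAA and 14.0% TGTGGT, so a match is common and is a description of the letters only. RefSeq entries were found for 7 of the 8 receptors.

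Neutrophils were divided into 7 clusters after the libraries were integrated, again without the receptors. The 3 receptors did not run in parallel over these clusters. The granule gene cluster, led by Camp, Ltf and Ngp, which neutrophils express while they mature, held 95 WT and 171 APP/PS1 cells. It stood lowest in CPM for all 3.

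Its Cxcr2 level was 570.3 (WT) and 612 (APP/PS1) CPM against 1435 and 1487 in the remaining neutrophils, a log2 ratio of -1.33 (-1.49 to -1.18) and -1.28 (-1.39 to -1.17). For Ccr1 the ratios were -1.72 (-1.91 to -1.53) and -1.64 (-1.78 to -1.51), and for Cxcr4 they were -2.02 (-2.30 to -1.76) and -1.89 (-2.08 to -1.70). The Cxcr4 ratio was the lowest of the 3 in both libraries, with an interval that overlapped that of Ccr1. At a finer clustering the same comparison gave smaller differences, -0.83 and -1.03 for Cxcr2, -1.25 and -1.50 for Ccr1 and -1.68 in both libraries for Cxcr4. Cells of the granule gene cluster were deeper, at medians of 6144 and 6656 UMIs against 2553 and 2703 in all neutrophils. Per cell they held 3.67 and 4.12 Cxcr2 UMIs against 4.05 and 4.47. For Ccr1 it was 2.54 and 2.77 against 3.65 and 3.85, and for Cxcr4 1.23 and 1.42 against 2.18 and 2.32. The CPM ratios describe a part of all UMIs, not an amount per cell.

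A second cluster, led by Clec4n, Dusp2 and the adhesion gene Icam1, was highest in CPM for Cxcr4 and for Ccr1. The Cxcr4 level there was 1067 CPM in WT and 1009 in APP/PS1 cells, against 700.4 and 694 in the rest, which is a log2 ratio of 0.61 (0.55 to 0.66) and 0.54 (0.50 to 0.58). Cxcr2 in the same cluster was at 1473 and 1516 CPM, only 0.07 and 0.08 above the other neutrophils on the log2 scale. Ccr1 in the Clec4n cluster was at 1483.5 and 1378 CPM, 0.27 and 0.17 above the other neutrophils on the log2 scale. Per cell it was lower there, at 3.19 and 3.28 Ccr1 UMIs against 3.65 and 3.85 in all neutrophils. Cxcr2 per cell was lower too, at 3.17 and 3.61 against 4.05 and 4.47. S100a9 was at 60110.5 and 46594 CPM in this cluster, the lowest of all clusters in both libraries. Its part in these CPM ratios was not tested. Per cell, Cxcr4 was at 2.30 and 2.40 UMIs in the Clec4n cluster, at median depths of 2138 and 2316. The cluster led by Rgs1 had more per cell, 3.37 and 4.28, at median depths of 3421 and 5323. In the largest cluster, led by Stfa2, Stfa1 and Retnlg, Cxcr4 was at 636 and 632 CPM and Cxcr2 at 1359 and 1443.

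Cxcr2 itself was highest in the cluster led by Rgs1, Hbegf and Il2rg, at 1549 and 1626 CPM. Over the 7 clusters the log2 ratio of APP/PS1 to WT ran from 0.03 to 0.21 for Cxcr2 and from -0.14 to 0.08 for Ccr1. For Cxcr4 it ran from -0.08 to 0.14 in 6 clusters and was -0.54 (-0.93 to -0.15) in a small cluster led by mitochondrial genes, on 111 and 116 UMIs. UMIs of several of these receptors were often seen in the same neutrophil in both genotypes, and each receptor was detected in most neutrophils. In cells thinned to 1000 UMIs, 37.6% (WT) and 37.3% (APP/PS1) had UMIs of both Cxcr2 and Cxcr4, and 50.8% of WT cells had both Cxcr2 and Ccr1. The single shares in thinned cells were 73.8% and 73.5% for Cxcr2, 50.7% and 50.4% for Cxcr4 and 68.4% and 68.5% for Ccr1. Whether the joint shares differ from independent detection was not tested.

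**Figure D2:**
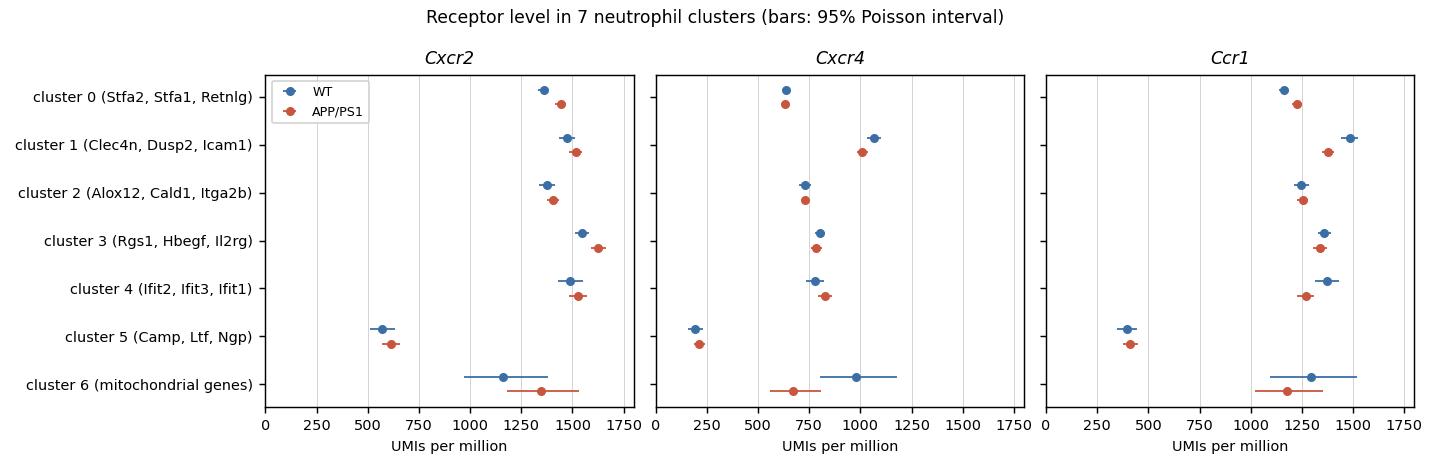
Level (CPM) of Cxcr2, Cxcr4 and Ccr1 in the 7 neutrophil clusters, named by their leading genes, with WT in blue and APP/PS1 in red and bars for 95% Poisson intervals. The Camp, Ltf and Ngp cluster is lowest in every panel, at 570.3 and 612 for Cxcr2, and the Clec4n cluster is highest for Cxcr4 at 1067 and 1009.

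Among the other named types, basophils and erythroid cells had the highest Cxcr2 levels. Unnamed clusters that carried neutrophil genes were higher still, at 532 and 600.4 CPM in that of the monocytes. Basophils, rare granulocytes that release histamine, had 394 (334 to 463) and 414 (333 to 509) CPM in 73 and 43 cells, and 69.9% and 67.4% of them had a UMI. Erythroid cells, the red cell lineage, had 271 (249 to 295) in WT and 448 (408 to 492) in APP/PS1. The order of these 2 types changed between the libraries, while neutrophils exceeded erythroid cells by a log2 ratio of 2.38 (2.25 to 2.51) and 1.70 (1.56 to 1.83).

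Ccr1 showed the same pair, with 460.2 (395 to 534) and 326 (255 to 412) CPM in basophils and 251 (230 to 275) and 347 (312 to 386) in erythroid cells. Neutrophils exceeded erythroid cells in Ccr1 by log2 ratios of 2.34 (2.21 to 2.47) and 1.85 (1.70 to 2.01). Both ratios rest on a type whose UMIs are mostly haemoglobin: its 7 marker genes summed to 555768 and 505309 CPM. When S100a8, S100a9, haemoglobin, ribosomal and mitochondrial genes were left out of the total, the neutrophil to erythroid ratio fell to 0.97 and 0.49 for Cxcr2 and to 0.93 and 0.65 for Ccr1.

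Droplets also take up free RNA from other cells. S100a8 and S100a9, the most abundant neutrophil genes, were measured in every type as a percentage of their neutrophil level, and Cxcr2 and Ccr1 were set beside them. In the monocyte, dendritic and lymphocyte types (plasma cells left out), S100a8 and S100a9 stood at 0.897% to 1.66%, Cxcr2 at 0% to 1.22% and Ccr1, classical monocytes aside, at 0.454% to 2.23%. B cells, which should lack Cxcr2, gave 6.51 and 14.6 CPM at median depths of 4435 and 5766, and the remaining types had 0 to 30.7. The value of 30.7, in APP/PS1 plasma cells, was 4 UMIs in 1 of 59 cells. The source of these Cxcr2 UMIs was not tested.

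Erythroid cells held S100a8 and S100a9 at 18.4% and 26.8% of the neutrophil level, beside Cxcr2 at 19.2% and 30.8% and Ccr1 at 19.8% and 27.7%. In the erythroid cells with the lower share of S100a8 and S100a9, 131 WT and 71 APP/PS1 cells, S100a8 and S100a9 were at 0.968% and 5.80% and Cxcr2 at 1.18% and 14.6%. Cxcr2 there was 16.7 (9.71 to 26.7) CPM in WT and 212 (175 to 254) in APP/PS1. Neutrophils exceeded these cells in Cxcr2 by log2 ratios of 6.40 and 2.78.

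In basophils the percentages parted. S100a8 and S100a9 were at 10.7% and 8.31% of the neutrophil level, while Cxcr2 was at 28.0% and 28.5% and Ccr1 at 36.2% and 26.1%. In the basophils low in S100a8 and S100a9, 37 WT and 22 APP/PS1 cells, those genes stood at 0.819% and 0.845%. Cxcr2 there was at 293 (218 to 386) and 287 (195 to 407) CPM and Ccr1 at 305 and 306. These comparisons of cells at the lower end of each type were added after the data had been seen. The cells were picked by their S100a8 and S100a9 share, so the fall of those genes was set by the choice. The source of the receptor UMIs in either type was not tested.

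**Figure D3:**
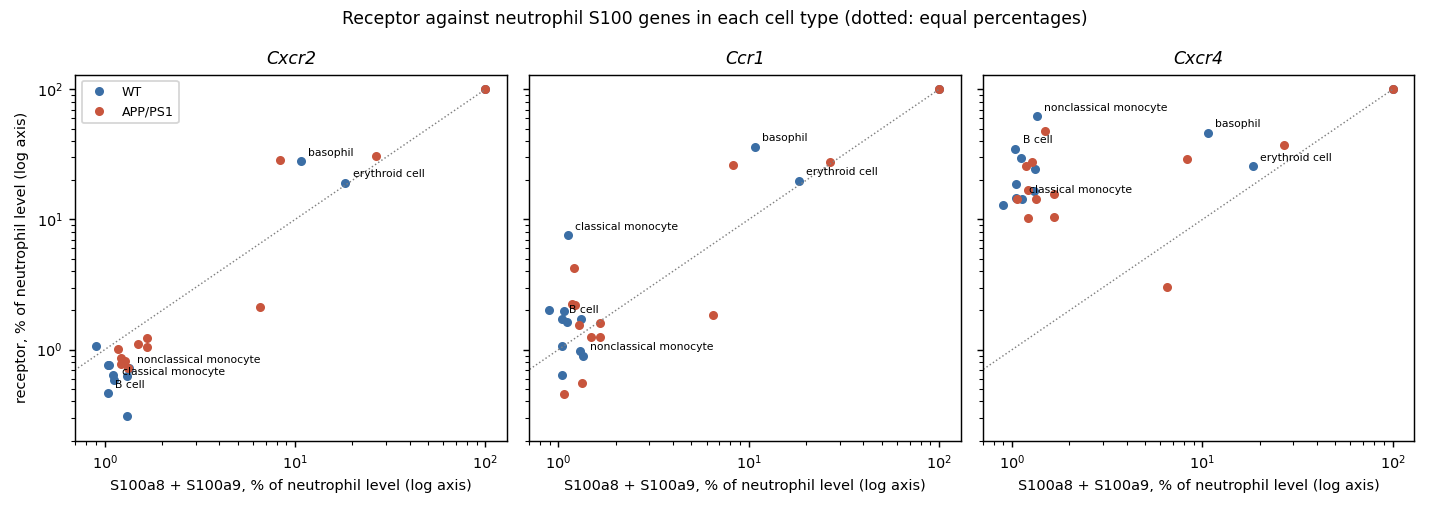
Receptor level against S100a8 and S100a9, both as a percentage of the neutrophil level (log axes), with 1 point per cell type and library and a dotted line of equal percentages; types with 0 receptor UMIs are left out. Erythroid cells lie on the line for Cxcr2 (19.2% at 18.4% in WT), basophils lie above it (28.0% at 10.7%), and for Cxcr4 almost every type lies above it.

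Cxcr4 was the most widely spread of the 8. Nonclassical monocytes, the patrolling subset, came next to neutrophils with 470.2 (456 to 485) CPM in WT and 364 (347 to 381) in APP/PS1, at shares of 80.2% and 70.6%. Neutrophils exceeded them by a log2 ratio of 0.69 (0.64 to 0.74) in WT and 1.05 (0.98 to 1.12) in APP/PS1, and with library sizes by TMM, a scaling that sets most genes equal between types, by 1.81 and 2.17. Basophils (352 and 221), B cells (265 and 194), MHC class II-high monocytes (225 and 211) and erythroid cells (194 and 282) followed, and these 4 changed places between the libraries.

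Below them lay memory CD8 T cells at 186 and 119 CPM, naive CD8 T cells at 143 and 108, NK cells at 126 and 78.9, classical monocytes at 110.2 and 126, gamma-delta T cells at 110.3 and 108 and Cd209a dendritic cells at 98.1 and 77.3. Only plasma cells, the antibody-secreting stage of B cells, were near 0, with 0 UMIs in 31 WT cells and 3 UMIs in 59 APP/PS1 cells. A count of 0 in 31 cells allows a share of up to 9.68%.

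The APP/PS1 to WT ratio of Cxcr4 was negative in several types. It was -0.37 (-0.45 to -0.29) in nonclassical monocytes, -0.46 (-0.69 to -0.23) in B cells and -0.68 (-1.01 to -0.33) in NK cells, where the share of cells with a UMI was 30.2% in WT and 22.1% in APP/PS1 at median depths of 3406 and 3184. The NK cell value depended on how cells were assigned, since it was -0.02 when each cell took the type of its own highest markers. In classical monocytes the ratio was 0.20 (0.07 to 0.32).

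Ccr2, the receptor of Ccl2, marked the classical monocytes, the inflammatory subset. It reached 1437 (1415 to 1460) CPM in WT and 1345 (1319 to 1372) in APP/PS1 classical monocytes, in 99.6% and 99.4% of cells. Cd209a dendritic cells, a small group of 108 and 72 cells that resemble monocyte-derived dendritic cells, had 1077 (1012 to 1146) and 921 (847 to 1000.1). Classical monocytes exceeded them by a log2 ratio of 0.42 (0.32 to 0.51) and 0.55 (0.42 to 0.67), and the ratio lay between 0.23 and 0.86 over the processing alternatives.

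MHC class II-high monocytes had 615 and 388 CPM of Ccr2, gamma-delta T cells 390.0 and 530.4, and basophils 299.8 and 294, and the first pair changed places between the libraries. Basophils had 299 and 241 CPM of Ccr2 in their cells low in S100a8 and S100a9. At the other end, Ccr2 was at 12.4 and 8.76 in neutrophils, which is 0.863% and 0.651% of the classical monocyte level.

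Cx3cr1, the receptor of fractalkine, ran the other way along the monocytes. Nonclassical monocytes had 601 (585 to 618) and 621 (599 to 644) CPM with 83.3% of cells positive in both libraries, MHC class II-high monocytes 404 and 448, and classical monocytes 218 and 259. Memory CD8 T cells, which in this cluster also expressed the proliferation genes Mki67, Stmn1 and Top2a, came second with 427 (369 to 491) and 489.8 (444 to 539) CPM. Nonclassical monocytes exceeded them by log2 ratios of 0.49 (0.29 to 0.71) and 0.34 (0.19 to 0.49), or 0.75 and 0.52 with TMM. Over both libraries the memory CD8 T cells held Gzma at 6264 and Prf1 at 360 CPM, both NK cell markers. Cd3e, Cd8a and Cd8b1 were highest in them, but their markers Nkg7, Il2rb, Eomes and Ctsw were higher in NK cells. Whether they are memory cells or effector cells, the stage that kills targets, was not tested.

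Memory CD8 T cells and MHC class II-high monocytes had overlapping intervals for Cx3cr1 in both libraries. So did classical monocytes, NK cells (232 and 236) and Cd209a dendritic cells (229 and 222). Neutrophils were at 8.54 and 5.74, which was 1.42% and 0.924% of the nonclassical level. The source of these UMIs was not tested. The 0.897% to 1.66% given above for S100a8 and S100a9 covers neutrophil genes in the named monocyte, dendritic and lymphocyte types without plasma cells, a different measure.

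Ccr2 and Cx3cr1 were often seen in the same cell where both were expressed. Both were detected in 71.5% (WT) and 74.8% (APP/PS1) of classical monocytes, 59.6% and 47.0% of MHC class II-high monocytes and 11.8% and 8.43% of nonclassical monocytes. After thinning to 1000 UMIs the same shares were 14.2% and 15.01%, 10.3% and 7.204%, and 1.68% and 1.11%, so the order of the 3 monocyte types held while the sizes followed depth.

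Between genotypes, Ccr2 was lower in the MHC class II-high monocytes of APP/PS1. The level was 615 (593 to 637) CPM in WT and 388 (369 to 409) in APP/PS1, a log2 ratio of -0.66 (-0.75 to -0.57), and 68.8% against 52.7% of cells had a UMI at median depths of 6714 and 6459. In the same cells the summed level of the 7 classical monocyte markers was 2200 and 2253 (2 higher, 5 lower in APP/PS1) and that of the 8 nonclassical markers 3759 and 3830 (6 higher), with none at 0, and their part in the Ccr2 difference was not tested. Over the processing alternatives the ratio lay between -0.55 and -0.87.

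Ccr1 in classical monocytes was lower in the APP/PS1 library, at 96.2 (90.5 to 102) CPM in WT and 53.2 (48.1 to 58.7) in APP/PS1, a log2 ratio of -0.85 (-1.02 to -0.69). A UMI was present in 44.2% of WT and 26.3% of APP/PS1 cells at median depths of 8042 and 7692. These levels were 7.58% and 4.25% of those in neutrophils, above the 1.12% and 1.21% of S100a8 and S100a9. In the same cells the 7 platelet markers summed to 222 and 290.0 CPM (7 of 7 higher), the 8 B cell markers to 189 and 268 (6 higher) and the 7 classical monocyte markers to 6202 and 7517 (5 higher), and their part in the Ccr1 difference was not tested. With each cell assigned by its own markers the ratio was -0.29, which is inside the limit used for calls.

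The call for a ratio was a log2 value beyond 0.5 in either direction at 200 or more UMIs in both libraries together. In classical monocytes 1 of the 4 receptors measured passed it (Ccr1), where 3.48% of 6919 genes did. In MHC class II-high monocytes it was 1 of 3 (Ccr2) against 3.71% of 4984 genes, and in nonclassical monocytes 0 of 3 against 3.44% of 6162 genes. Cd209a dendritic cells had 0 of 2 against 6.64% of 1085 genes.

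In neutrophils 2 of 5 receptors passed, against 6.73% of 7120 genes, and both were monocyte receptors at low level. Ccr2 had a log2 ratio of -0.50 (-0.75 to -0.25) and Cx3cr1 of -0.57 (-0.88 to -0.27). Other monocyte genes measured in neutrophils had ratios from -1.44 (Vcan) to -0.06 (F13a1), with Adgre4 at -0.54 and Fn1 at -0.32, and their part in the receptor values was not tested. The median of the 5 receptors was -0.02 and that of all genes 0.05.

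**Figure D4:**
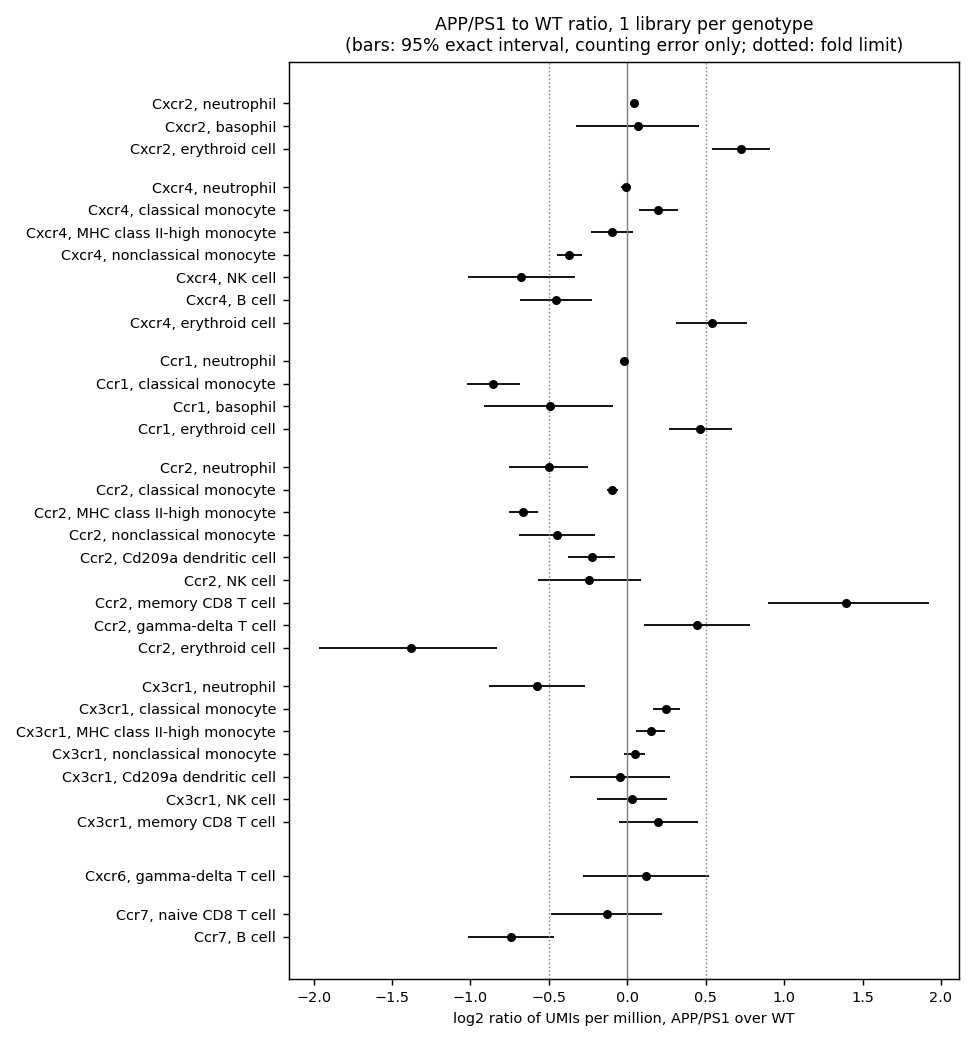
The log2 ratio of APP/PS1 to WT levels for every receptor and named cell type with at least 200 UMIs, with 95% exact conditional intervals for counting error; the grey line marks 0 and dotted lines the limit of 0.5. The neutrophil values of Cxcr2, Cxcr4 and Ccr1 sit at 0.04, -0.01 and -0.02, and Ccr2 spans from -1.38 in erythroid cells to 1.39 in memory CD8 T cells.

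The lymphocyte receptors were rarer and sharper. Cxcr6, the receptor of Cxcl16, was at 315 (260.3 to 377) CPM in WT and 342 (278 to 417) in APP/PS1 gamma-delta T cells, T cells with an unconventional antigen receptor, and 71.4% of 77 and 72.7% of 55 cells had a UMI. Memory CD8 T cells followed with 41.2 (24.8 to 64.3) and 72.8 (55.8 to 93.4), a log2 distance of 2.93 (2.23 to 3.72) and 2.23 (1.76 to 2.71) below, or 0.66 in APP/PS1 when each cell took the type of its own markers. In B cells no Cxcr6 UMI was found in 253 and 279 cells, which allows shares of up to 1.19% and 1.08%.

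The gamma-delta T cells carried Ccr2 as well, in 74.0% of WT and 80.0% of APP/PS1 cells. Both receptors were seen in 57.1% and 58.2% of them. Cxcr6 (chr9:123806475-123811760), Ccr1 and Ccr2 (chr9:124101950-124113557) lie in that order on chromosome 9, with 151 kb from the start of Ccr1 to the end of Ccr2, although their highest cell types differed.

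Cxcr3, the receptor of the interferon-induced ligands Cxcl9 and Cxcl10, was the rarest. Memory CD8 T cells had 28.2 (15.002 to 48.2) CPM in WT from 13 UMIs and 38.8 (26.7 to 54.4) in APP/PS1 from 33 UMIs, with a UMI in 7.35% and 10.6% of cells. An unnamed T cell cluster of 33 and 67 cells had 67.4 and 60.8. Gamma-delta T cells, second among the named types, had 1 and 3 UMIs, and memory CD8 T cells exceeded them by a log2 ratio of 3.39 (0.65 to 8.80) and 1.89 (0.22 to 4.24). The WT ratio was -0.82 in thinned cells and 0.48 with types from each cell's own markers. The thinned value is of little weight, since a Cxcr3 UMI was left in only 0.735% of 136 memory CD8 and 1.30% of 77 gamma-delta T cells.

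Neutrophils gave 48 and 89 Cxcr3 UMIs, 43.9% of all UMIs of the gene, in the most numerous type. The level was 2.20 (1.63 to 2.92) and 3.02 (2.43 to 3.72) CPM, and 0.593% and 0.876% of cells had a UMI. B cells had 4.07 and 4.44 CPM from 5 and 7 UMIs, and the 3 monocyte types 0.119 to 0.903 CPM. Within neutrophils it was 4.23 (2.37 to 6.98) and 5.43 (3.69 to 7.71) in the Clec4n cluster and 1.25 (0.57 to 2.38) and 1.13 (0.52 to 2.15) in the largest cluster.

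Ccr7 was seen in naive CD8 T cells and B cells. In naive CD8 T cells it stood at 609 (532 to 694) CPM in WT and 557 (453 to 679) in APP/PS1, in 84.4% of 77 and 77.1% of 35 cells. B cells had 207 (182 to 234) and 124 (107 to 142), a log2 distance of 1.56 (1.29 to 1.82) and 2.17 (1.81 to 2.53) below the naive cells, given without the minimum of 50 cells per library that naive CD8 T cells miss. Among types with that minimum B cells were highest, with a log2 ratio to gamma-delta T cells of 3.94 (2.70 to 5.58) in WT. In APP/PS1 gamma-delta T cells no UMI was found, and the lower limit of the log2 ratio was 3.25.

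No Ccr7 UMI was found in 318 WT and 575 APP/PS1 NK cells, which allows shares of up to 0.943% and 0.522%. Cd209a dendritic cells, basophils and plasma cells were at 0 in both libraries as well.

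Ccr7 in B cells differed between the libraries by a log2 ratio of -0.74 (-1.02 to -0.47), with 53.0% of WT and 36.6% of APP/PS1 cells positive at median depths of 4435 and 5766. Over the alternatives the ratio lay between -0.53 and -0.82. The 7 erythroid markers summed to 12928 and 3452 CPM in B cells (7 of 7 lower), the 7 NK cell markers to 8.14 and 141 (7 of 7 higher) and the 6 basophil markers to 22.0 and 0.634 (5 lower, Cd200r3 at 0). The part of these lists in the Ccr7 difference was not tested. The B cells fell into 3 clusters of unequal Ccr7 level, and their sizes differed between the libraries.

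The cluster led by Vpreb3, Satb1 and Fcer2a was the richest in Ccr7, at 466 (384 to 559) CPM in 85 WT cells and 499.99 (366 to 667) in 32 APP/PS1 cells, and made up 33.6% and 11.5% of B cells. The main cluster, with 59.3% and 62.7% of B cells, had 150.5 (126 to 178) and 134 (113 to 158). The last cluster, led by Lifr, S100a4 and Tppp3, had 67.0 (26.9 to 138) in 18 and 24.2 (12.1 to 43.3) in 72 cells, 7.12% and 25.8% of B cells.

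Within the clusters the Ccr7 log2 ratio was 0.10 (-0.42 to 0.61) in the Vpreb3 cluster, -0.17 (-0.52 to 0.19) in the main cluster and -1.47 (-2.97 to 0.14) in the Lifr cluster, so each interval included 0. Cxcr4 was also highest in the Vpreb3 cluster, at 489.8 and 402, against 220.1 and 171 in the main cluster. The parts of B cells in the Vpreb3 and Lifr clusters differed between the libraries, while the main cluster held 59.3% and 62.7%. Their part in the Ccr7 difference was not tested, and with 1 library per genotype the make-up of the pool and the genotype cannot be told apart.

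**Figure D5:**
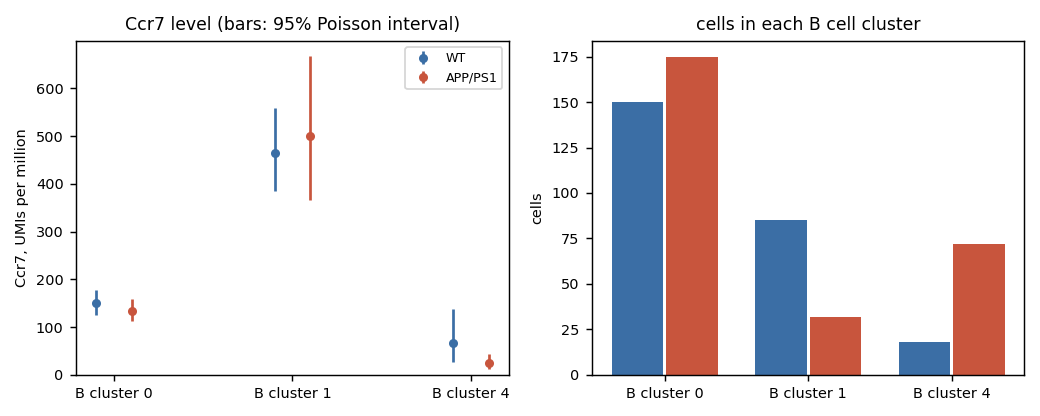
Left, Ccr7 level (CPM, bars 95% Poisson intervals) in the 3 B cell clusters, and right, the number of cells in each, with WT in blue and APP/PS1 in red. Levels in the Vpreb3 cluster (B cluster 1) are 466 and 499.99, close between libraries, while its cell numbers are 85 and 32.

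Among lymphocyte values with 200 or more UMIs, the largest genotype ratio was that of Ccr2 in memory CD8 T cells. It rested on 40 WT and 194 APP/PS1 UMIs, levels of 86.7 (61.9 to 118) and 228 (197 to 262), for a log2 ratio of 1.39 (0.90 to 1.92), and 20.6% and 35.5% of cells had a UMI at median depths of 3012 and 2951. The summed level of the 7 classical monocyte markers in these cells was 921 and 1239 (5 higher, 1 lower, Vcan at 0). Ly6c2 alone was at 1057 CPM there over both libraries, so the sum was mostly this 1 gene. The part of the markers in the Ccr2 ratio was not tested. Assigned by each cell's own markers, the ratio was 0.38, inside the limit.

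Of the receptors measured, 1 of 2 passed in memory CD8 T cells (7.46% of 898 genes), 1 of 3 in NK cells (Cxcr4, 2.39% of 2348 genes), 1 of 2 in B cells (Ccr7, 4.9% of 1774 genes), 0 of 2 in gamma-delta T cells (4.33% of 416 genes) and 0 of 1 in naive CD8 T cells (3.57% of 252 genes). In basophils it was 0 of 2 (12.9% of 426 genes). Erythroid cells had 3 of 4, Cxcr2 at 0.72 (0.54 to 0.91), Cxcr4 at 0.54 (0.31 to 0.76) and Ccr2 at -1.38 (-1.96 to -0.83), where 21.8% of 826 genes passed and the 8 neutrophil markers summed to 33819 in WT and 41101 in APP/PS1 (6 of 8 higher). The 7 classical monocyte markers there summed to 381 and 229.5 (6 of 7 lower). The part of either list in those ratios was not tested, and the Ccr2 ratio was -0.15 without percentile limits on cells.

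The other chemokine receptors were mostly rare. Of 16 in the fixed list, 1 had no UMI (Ccr8), and those with a clear site included Ccr6 and Ccr10 in gamma-delta T cells at 170.1 and 166 CPM, Cxcr5 in B cells at 105 and Ccr9 in naive CD8 T cells at 89.6. Cxcr1, the nearest relative of Cxcr2, was at 26.6 in neutrophils. In neutrophils 3 of the 16 could be compared and 2 were higher in APP/PS1, where 6.73% of all genes passed in either direction, Ccr3 at a log2 ratio of 1.31 (0.88 to 1.75) from 2.66 to 6.58 CPM and Ccrl2 at 0.97 (0.92 to 1.01) from 286 to 559, while none was lower.

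Of 35 chemokine ligand genes, 11 could be compared in neutrophils, 2 were higher in APP/PS1 and 3 lower, beside the 6.73% of all genes that passed there. The lower ones included Cxcl2 and Cxcl3, both ligands of Cxcr2. Cxcl2 went from 4054 to 2701 CPM, a log2 ratio of -0.59 (-0.60 to -0.57), and Cxcl3 went from 24.5 to 9.13, a ratio of -1.43 (-1.64 to -1.21). Ccl5, a ligand of Ccr1, was higher with a ratio of 0.60 (0.48 to 0.72). In the same cells the 7 NK cell markers summed to 16.8 CPM in WT and 27.4 in APP/PS1 (7 of 7 higher). The 8 memory CD8 T cell markers summed to 8.36 and 11.6 (4 higher, 4 lower). The part of either list in the Ccl5 ratio was not tested. Cxcl10, a ligand of Cxcr3, rose from 5.10 to 12.3 CPM, a ratio of 1.26 (0.95 to 1.59).

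Ccl3, a ligand of Ccr1, and Ccl4, a related chemokine, were higher beyond the limit in all 3 monocyte types. They were 2 of 9 ligands compared in classical (3.48% of all genes) and 2 of 9 in MHC class II-high monocytes (3.71%). In nonclassical monocytes they were 2 of 8 (3.44%). In Cd209a dendritic cells 2 of 5 ligands passed (6.64% of all genes), Ccl4 and Ccl9, and both were lower in APP/PS1. In nonclassical monocytes Ccl3 went from 47.1 to 155 CPM, a log2 ratio of 1.72 (1.54 to 1.90), and in classical monocytes from 36.8 to 94.97. Of 23 receptor signalling genes, 22 could be compared in neutrophils and 1 passed, a share near that of all genes (6.73%), Rgs1, an inhibitor of G protein signals, at -0.91 (-1.01 to -0.80). In classical monocytes it was 0 of 23 (3.48% of all genes) and in NK cells 1 of 15 (2.39%), the receptor kinase Grk6.

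Over the 13 cell types, the genes whose log2 level ran most like a receptor's were named by Pearson r over those 13 points, which share 2 libraries, and are a description only. For Cxcr2 they were Retnlg (0.98), Il1f9 (0.97) and S100a9 (0.97), and for Ccr1 Cxcl2 (0.96), Ptgs2os (0.95) and Cd33 (0.94). Cxcr6 ran with Tcrg-C2 (0.98), Icos (0.96) and Bcl11b (0.93), and Ccr7 with Trib2 (0.91), Pik3ip1 (0.87) and Ttc27 (0.85).

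Cxcr4 ran with Stk38l (0.95), Map3k5 (0.93) and Ddx3x (0.93), and Ccr2 with Fam129b (0.95), Arf5 (0.91) and Mcub (0.89). For Cx3cr1 the 3 were Cgas (0.92), Luzp1 (0.91) and Havcr2 (0.89), and for Cxcr3 Gm43387 (0.92), Crtam (0.91) and Ahi1 (0.90), the last on 240 UMIs of Cxcr3 in the named types.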

How the data were processed

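The authors sequenced 2 droplet libraries of neutrophil-enriched mouse blood and deposited, per the file headers, raw UMI counts, which Cell Ranger 5.0.0 had produced on mm10 without normalization. From these counts, cells between the 5th and 95th percentile of genes and of UMIs of their library with at most 10% mitochondrial UMIs were kept, and genes seen in at least 3 cells. They were log-normalized (10000 UMIs) and clustered in Seurat 5.3.0 (R 4.3.3) on 2000 variable features, without chemokine receptors and ligands, and 15 principal components at a resolution of 0.2. Neutrophils were clustered again after integration (0.3) and other lineages without it (0.5). Clusters were named from fixed markers. Percentile limits remove shallow and deep cells of every type, and free RNA was not subtracted.

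Scrublet (scanpy 1.11.5) was run for doublets: the threshold of 0.214 found in WT was used for both libraries, because the automatic one (0.669) called 0 cells in APP/PS1, and the calls served only as an alternative. Levels are CPM, UMIs summed over the cells of a type on a per-million scale of its total. With 1 library per genotype no test was run, and intervals (scipy 1.17.1) and the limit for a count of 0 (3 counts) cover counting error only. The step that computes levels and ratios was tested on simulated data. Other settings included edgeR 4.0.16 TMM library sizes, thinning to 1000 UMIs and types from each cell's own markers. The named genes were the 8 receptors, the 3 genes most alike in level to each, and up to 4 examples from each fixed list. The members and lists were chosen with earlier results of these data known.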

Additional observations from a re-analysis of the deposited data

Results flagged for a closer look

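For 4 receptors, the ratio of APP/PS1 to WT had opposite signs in 2 cell types, with intervals that left out 0 in both. The share of all genes with such a pair is not given, so the count cannot be read as particular to these receptors. With 1 library per genotype the difference was not tested for any of them. For Cxcr4 the log2 ratio was 0.54 in erythroid cells and -0.68 (-0.675 before rounding) in NK cells. For Ccr1 it was 0.47 in erythroid cells and -0.85 in classical monocytes. Ccr2 had 1.39 in memory CD8 T cells and -1.38 in erythroid cells. Cx3cr1 had 0.25 in classical monocytes and -0.57 in neutrophils, where its level was only 8.54 and 5.74 CPM. In erythroid cells the median log2 ratio of all genes was 0.20, and 21.8% of genes passed the limit. With types from each cell's own markers, Cxcr4 in NK cells, Ccr1 in classical monocytes and Ccr2 in memory CD8 T cells fell inside the limit. Ccr2 in erythroid cells did so without percentile limits on cells.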

How the results depend on the processing

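Ratios are log2 values, with WT before APP/PS1 where both are given. Of the values that answer a comparison, 198 stayed within their counting interval over the alternatives, 69 moved beyond it and 2 reversed. Of the other values, 221 stayed, 47 moved and 4 reversed. A value is counted as reversed where its sign changed and its own interval had left out 0, and any other change of sign is counted by whether the value left that interval. The cause was not tested for any of them. The neutrophil to erythroid ratio depended most on the setting. For Cxcr2 it was 6.40 and 2.78 in cells low in S100a8 and S100a9, 2.77 and 2.05 without doublets, 1.79 and 1.37 with TMM, 0.97 and 0.49 without abundant genes, 3.70 and 3.195 without percentile limits, 1.53 and 0.9963 with types from each cell's own markers, and 1.52 in APP/PS1 as a mean over cells. For Ccr1 it was 6.25 and 2.74, 1.75 and 1.52, 0.93 and 0.65, 3.58 and 3.33, and 1.53 and 0.9993 in the same settings but doublets, 2.88 in WT without doublets, and 2.52 and 1.65 when thinned to 1000 UMIs. The Cxcr4 ratio of neutrophils to nonclassical monocytes was 1.81 and 2.17 with TMM, 0.74 in WT without percentile limits and 0.77 in WT at a resolution of 0.3. For Ccr2, classical monocytes to Cd209a dendritic cells gave 0.58 and 0.74 with TMM, 0.24 and 0.39 without percentile limits, 0.51 and 0.40 thinned, 0.23 and 0.25 with own markers, and 0.86 in APP/PS1 cells low in S100a8 and S100a9. For Cx3cr1, nonclassical monocytes to memory CD8 T cells gave 0.75 and 0.52 with TMM. The Cxcr3 ratio of memory CD8 to gamma-delta T cells in WT was -0.82 thinned and 0.48 with own markers. The thinned value rests on a Cxcr3 UMI in 0.735% of 136 and 1.30% of 77 cells. The Cxcr6 ratio of gamma-delta to memory CD8 T cells in APP/PS1 was 0.66 with own markers.

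The granule gene cluster against other neutrophils gave, with all variable features, -0.90 and -1.07 for Cxcr2, -1.23 in WT for Ccr1 and -1.73 in WT for Cxcr4. At a resolution of 0.5 it gave -0.83 and -1.03 for Cxcr2, -1.25 and -1.50 for Ccr1, and -1.68 and -1.68 for Cxcr4. Thinned, it gave -1.17 in WT for Cxcr2, -1.48 in APP/PS1 for Ccr1 and -1.68 in WT for Cxcr4.

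The APP/PS1 to WT ratio in neutrophils was 0.019 for Cxcr2 and -0.043 for Ccr1 with TMM. Without abundant genes it was -0.0023 for Cxcr2, -0.064 for Ccr1 and -0.054 for Cxcr4. With own markers it was 0.077 for Cxcr2 and 0.0044 for Ccr1. Ccr2 in classical monocytes was -0.047 without percentile limits, -0.042 thinned and -0.15 with own markers, and Cx3cr1 in nonclassical monocytes -0.025 with own markers. Cxcr6 in gamma-delta T cells was -0.37 thinned and -0.62 with own markers, and Cxcr3 in memory CD8 T cells 2.53 thinned. That Cxcr3 value rests on a UMI in 0.735% of 136 WT and 4.26% of 282 APP/PS1 cells. Signs also turned for Ccr1 in basophils (0.0042 in cells low in S100a8 and S100a9, 0.24 with own markers), Ccr2 in Cd209a dendritic cells (0.065 thinned) and Ccr2 in gamma-delta T cells (-0.38 with own markers). No paired analysis was possible because each genotype has 1 library, and for the same reason no library could be left out. Depth limits Cxcr3 most, with 46 UMIs in memory CD8 T cells.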
